A study of Mus musculus with 8 samples.

Results

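Blood vessels are lined by endothelial cells and wrapped by mural cells, the pericytes of small vessels and the smooth muscle cells of larger ones. The transcripts described here are those of 10 such genes, chosen by symbol from a table of 53801 genes. The 5 endothelial genes were Pecam1, Cdh5, Kdr, Tek and Emcn, and the 5 mural genes were Rgs5, Cspg4, Mcam, Notch3 and Kcnj8. All 10 symbols were found once in the table.

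RNA had been sequenced from stromal cells of MO5 tumours, a B16 mouse melanoma line that carries ovalbumin, grown under the skin. The hosts were ADAM12-GFP mice on a C57Bl/6 background, aged 8 to 12 weeks, and cells were taken at day 8 of tumour growth. Sorted cells lacked CD45 and CD31 at the surface, carried PDPN and PDGFRα, and were parted by GFP into a GFP- and a GFP+ group of 4 libraries each. In these mice an Adam12 bacterial artificial chromosome drives Cre and GFP, so the GFP- label names the reporter state of cells from reporter mice, not a strain without the transgene. The labels number the replicates 1 to 4 in each group but do not say whether they came from separate mice, nor whether equal numbers share a mouse. By the study's methods, n counts mice unless stated otherwise. P-values measure the spread between these libraries. The gate bears on the genes described: CD31 is the product of Pecam1, so endothelial cells were meant to be left out, and no typical surface protein of mural cells was part of the gate. The paper describes its ADAM12+ cells as distinct from pericytes, with low or no NG2 protein and a place outside the basement membrane of vessels.

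Endothelial cells are held together by PECAM1 and VE-cadherin (the product of Cdh5), and their growth and quiescence depend on the receptor tyrosine kinases VEGFR2 (Kdr) and TIE2 (Tek). Pericytes touch the endothelium through a shared basement membrane, receive Notch signals from it and set vessel tone in part through potassium channels. Several of these genes are also transcribed outside vessels: Pecam1 in leukocytes and platelets, Cspg4 (NG2) in glial progenitors and melanoma, and Mcam in melanoma cells, on which it was first described.

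Endothelial promoters often hold sites for ETS family factors, whose core is GGAA. The 200 bases before the RefSeq start (GRCm38.p6) are printed for 3 genes of unlike level: Tek, with the highest level per length of all 10 genes, Kdr, which ranged from 288 to 1912 normalised counts, and Emcn, with reads in 3 of 8 libraries. Capitals mark GGAA on either strand, which reads TTCC where it lies on the other one.
Tek (chr4:94739089-94739288, plus strand): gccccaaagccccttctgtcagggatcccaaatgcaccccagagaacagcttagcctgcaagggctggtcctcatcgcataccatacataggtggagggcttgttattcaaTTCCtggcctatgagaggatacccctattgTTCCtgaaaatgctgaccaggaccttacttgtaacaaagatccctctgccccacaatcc
Kdr (chr5:75978456-75978655, minus strand): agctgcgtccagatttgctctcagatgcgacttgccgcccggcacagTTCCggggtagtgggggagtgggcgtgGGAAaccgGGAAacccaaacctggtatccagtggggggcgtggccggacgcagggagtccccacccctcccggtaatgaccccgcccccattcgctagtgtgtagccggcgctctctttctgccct
Emcn (chr3:137340878-137341077, plus strand): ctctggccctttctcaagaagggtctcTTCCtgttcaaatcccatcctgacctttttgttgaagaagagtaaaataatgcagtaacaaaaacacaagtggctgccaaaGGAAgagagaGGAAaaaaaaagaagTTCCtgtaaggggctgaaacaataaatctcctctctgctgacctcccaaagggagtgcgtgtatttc
The stretch held 2 matches for Tek, 3 for Kdr and 4 for Emcn. A match is common: 89% of 32851 promoters in the RefSeq table held at least 1 in the same 200 bases, 66.2% at least 2, 41% at least 3 and 21.5% at least 4. Promoters of 8 of the 10 genes were in the table, those of Pecam1 and Cdh5 not among them. Rgs5 had 3 matches, Mcam 1, and Cspg4, Notch3 and Kcnj8 had 0. For Notch3, unlike the other genes, 20 bases tested after the RefSeq start were not found in a GENCODE M21 transcript, so its start is less certain.

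Library totals ran from 883144 counts in GFP- replicate 3 to 31666734 in GFP+ replicate 4, so that 1 read was worth 10.99 normalised counts in the former and 0.335 in the latter. Normalised counts are raw counts divided by the DESeq2 size factor, and where values are paired the GFP- group comes first. Pdgfra and Pdpn, the genes of the selecting markers, were both called higher in GFP+ libraries and are counted in the fibroblast list below. Pdgfra had 4706 to 7054 and 12812 to 16246 normalised counts, at an adjusted p of 1.93e-12 in DESeq2. Pdpn had 1609 to 2527 and 2613 to 3848, at 0.0134 in DESeq2, a call lost without GFP- replicate 1 or 4 or GFP+ replicate 3. Adam12 was higher in GFP+ libraries, 1833 to 2938 against 920 to 1693, and had reads in every GFP- library. Its log2 change was 0.75 ± 0.24 (SE), at an adjusted p of 0.0266 in DESeq2, and the call was lost without GFP- replicate 3 or 4 or GFP+ replicate 2 or 4, with adjusted p up to 0.117. Ptprc, the gene of CD45, ranged from 119 to 1703, with its highest values in GFP- replicate 3 and GFP+ replicate 2. The 11 melanocyte genes were all lower in GFP+ libraries, with a sum of 4517 to 11885 against 25502 to 74881 normalised counts. In bulk RNA, fewer cells of a type and less RNA per cell cannot be told apart. Intervals and floors given for counts cover counting error only.

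The comparison of GFP+ with GFP- libraries asks whether vascular transcripts differ between stromal cells with and without the Adam12 reporter signal. Mcam was lower in GFP+ libraries and was the sole member called, at an adjusted p under 0.05 in DESeq2. None of the 4 endothelial genes that could be tested was called in DESeq2, where 1 had an unadjusted p under 0.05 (21% of all tested genes did), or in edgeR on genes kept by its filterByExpr filter, and 1 was called in limma voom on the same genes. Cdh5 was not kept by that filter, so it was not tested in the fits on filtered genes. Over all 15283 genes tested, 9.42% were called, 4.66% as higher and 4.76% as lower. With the filter, 5.11% were called in edgeR and 9% in limma voom, and on all 29043 genes with a count 4.37% and 3.23%. With 1 call among 9 genes tested, the members were near that background. The median log2 change, always GFP+ over GFP-, was 0.25 over the 4 endothelial genes and 0.26 over the 5 mural genes, against -0.00818 over all tested genes. Over all 5 endothelial genes it was 0.086. With 1 library left out it ran from -0.087 to 0.24 for the 5 endothelial genes and from -0.051 to 0.54 for the mural genes, so neither median held its sign. Emcn had too few counts for an adjusted p, and 7 of the 10 genes had a count in every library.

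**Figure D1:**
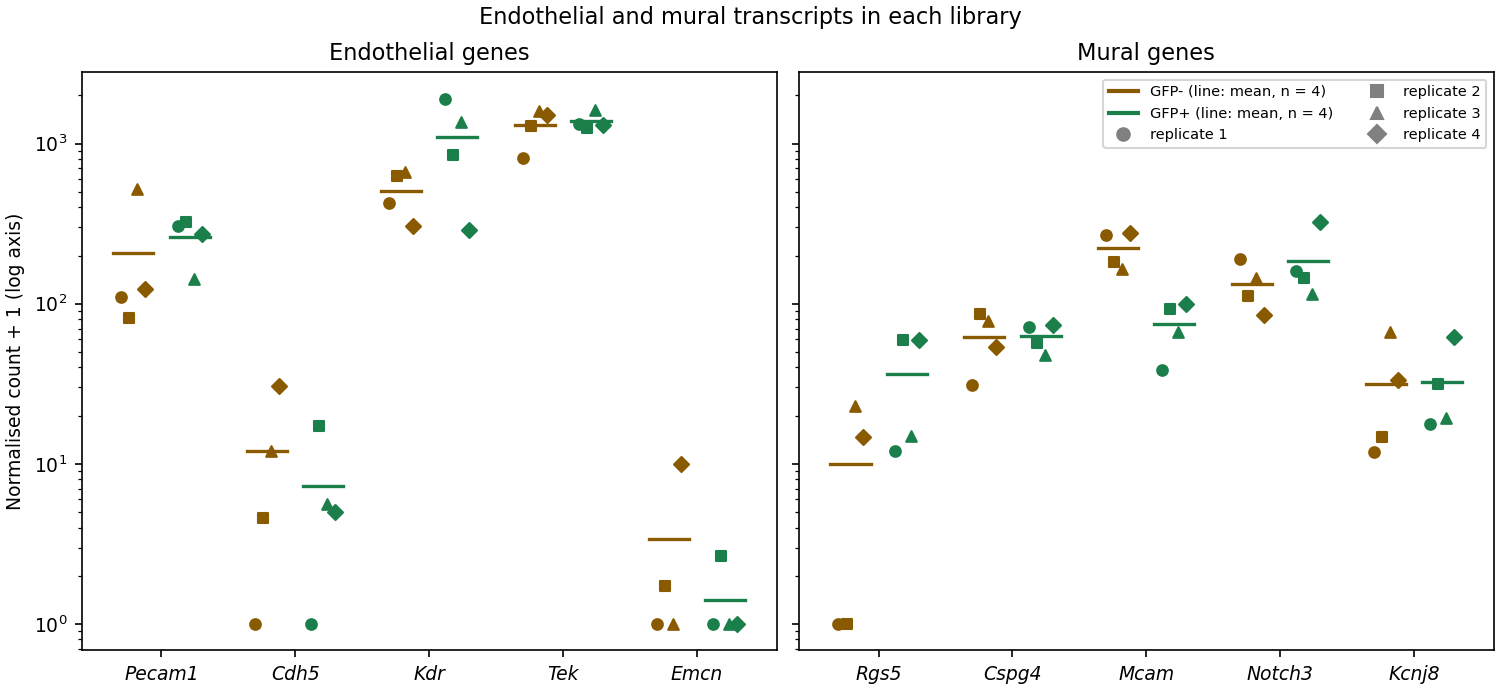
Normalised counts plus 1 (log axis) of the 5 endothelial and 5 mural genes, with 1 point per library, marker shape giving the replicate and lines the group mean (n = 4). Mcam is the gene whose groups do not overlap, Tek averages 1309 and 1379, and Emcn lies at the bottom of the axis.

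Per exon length, the genes spanned a wide range. Levels per kilobase of exon are normalised counts divided by the exon length in GENCODE M21. In GFP- libraries the order of means was Tek 278, Mcam 66.3, Kdr 55.9, Pecam1 33.3, Notch3 16.3, Kcnj8 12.1, Cspg4 5.12, Cdh5 2.62, Rgs5 1.96 and Emcn 0.446 normalised counts per kilobase. In GFP+ libraries it was Tek 293, Kdr 122, Pecam1 41.9, Notch3 22.9, Mcam 21.9, Kcnj8 12.4, Rgs5 7.76, Cspg4 5.16, Cdh5 1.48 and Emcn 0.0773 normalised counts per kilobase. Tek stood above every other member in each library range, from 174 to 340 in GFP- and from 267 to 345 in GFP+ libraries. All other neighbours in the order overlapped in range within a group, except Cspg4 and Cdh5 in GFP+ libraries, where the lowest Cspg4 level was 3.93 and the highest Cdh5 level 3.88 per kilobase. Tek was at percentile 92.01 of all tested genes in both groups. For comparison on the same scale, Pdgfra averaged 576 and 1434 per kilobase in GFP- and GFP+ libraries.

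Reads of the endothelial genes were uneven. Tek and Kdr together made up 81.1 to 95.75% of the reads of the 5 endothelial genes in a library, and Cdh5 and Emcn together 0 to 1.93%. All reads of the 5 endothelial genes amounted to 0.0127 to 0.0291% of a library and those of the 5 mural genes to 0.00226 to 0.00579%. The mean of log2(normalised count + 1) over the 5 endothelial genes was 5.04, 5.79, 6.52 and 6.80 in GFP- replicates 1 to 4 and 5.91, 6.78, 6.15 and 5.79 in GFP+ replicates 1 to 4. Over the 5 mural genes it was 4.83, 4.92, 6.28 and 5.84 in GFP- and 5.30, 6.08, 5.33 and 6.61 in GFP+ replicates. Both means overlapped between the groups. The endothelial mean lay above the mural mean in every library but GFP+ replicate 4, where it lay 0.82 below.

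Pecam1 (ENSMUSG00000020717, chr11:106654217-106750628, minus strand; GRCm38) encodes CD31, an adhesion molecule of endothelial junctions. GFP- replicates 1 to 4 had 110, 81.0, 516 and 123 normalised counts, and GFP+ replicates had 307, 323, 141 and 272. All GFP+ libraries lay above 3 of the GFP- libraries and all lay below GFP- replicate 3, so the groups overlapped. The value of GFP- replicate 3 came from 47 reads, with an exact Poisson interval of 379 to 687 normalised counts, and is thus above every other library beyond counting error. The log2 change over all 8 libraries was 0.42 ± 0.54 (SE), at an adjusted p of 0.731 in DESeq2 and 0.691 in edgeR on filtered genes. Without GFP- replicate 3 it was 1.31 at an adjusted p of 0.00439 in DESeq2, where 12% of 15291 tested genes were called and 6.13% were called higher. limma voom on filtered genes called Pecam1 with all 8, at 1.23 and an adjusted p of 0.0438. GFP- replicate 3 also had the highest sum over 17 leukocyte genes, 7812 normalised counts against 1290 to 2865 in the other GFP- libraries. Within GFP- libraries Pecam1 followed the order of that sum, and within GFP+ libraries, where the sum was 1725, 6129, 1249 and 3016, it did not. Leaving out GFP- replicate 3 and GFP+ replicate 2, the libraries with the most leukocyte counts in each group, gave a log2 change of 1.19 and an adjusted p of 0.0430 in DESeq2. That fit was chosen after seeing the data and called 1535 genes in all. It also drops GFP- replicate 3, whose loss alone gave 1.31, so it gives no separate view of leukocyte RNA. None of the 17 leukocyte genes tested was called in DESeq2, edgeR or limma voom on filtered genes, against 9.42%, 5.11% and 9% of all genes. Of the 17, 0 had an unadjusted p under 0.05 in DESeq2, against 21% of tested genes. The part of leukocyte RNA in the Pecam1 values was not tested further.

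Cdh5 (ENSMUSG00000031871, chr8:104101625-104144511, plus strand) encodes VE-cadherin, the cadherin of endothelial adherens junctions. GFP- replicates had 0, 3.58, 10.99 and 29.4 normalised counts, and GFP+ replicates had 0, 16.3, 4.61 and 4.03. The value of GFP- replicate 3 was 1 read, and the highest value, that of GFP- replicate 4, was 56 reads. Replicate 1 was at 0 in both groups, which allows up to 4.07 and 4.17 normalised counts by a limit of 3 reads, and 5.005 and 5.12 by the exact Poisson interval used for the other genes. Its log2 change of -0.81 ± 1.502 (SE) had an adjusted p of 0.840 in DESeq2, and it turned to 0.89 without GFP- replicate 4.

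Kdr (ENSMUSG00000062960, chr5:75932827-75978458, minus strand) encodes VEGFR2, the main signalling receptor for VEGF-A. GFP- replicates had 426, 628, 659 and 306 normalised counts, and GFP+ replicates had 1912, 844, 1369 and 288. GFP+ replicates 1, 2 and 3 lay above every GFP- library, and GFP+ replicate 4 was the lowest of all 8. In DESeq2 the log2 change was 1.14 ± 0.46 (SE, 95% interval 0.23 to 2.04), with an unadjusted p of 0.0138 and an adjusted p of 0.107, so Kdr was not called. Adjusted p-values were 0.185 in edgeR and 0.381 in limma voom on filtered genes, whereas edgeR on all genes with a count called Kdr with an adjusted p of 1.6e-04. Without GFP+ replicate 4 the log2 change was 1.46 and the adjusted p in DESeq2 7.74e-04. Without GFP+ replicate 1 the log2 change was 0.75 at an adjusted p of 0.356, and Kdr was uncalled in 7 of the 8 fits that left out 1 library. Within each group Kdr ran in the reverse of the order of the summed melanocyte genes, which 0.288% of all tested genes did. Named genes were compared in this way with both the melanocyte and the leukocyte sum, so that share is no test of Kdr. The order of GFP- replicates 2 and 3 lay within counting error: replicate 3 came from 60 reads, with an exact Poisson interval of 503 to 849 normalised counts. GFP+ replicate 4 had the most melanocyte counts of its group, 11885. The part of these transcripts in the Kdr values was not tested.

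Tek (ENSMUSG00000006386, chr4:94739289-94874976, plus strand) encodes TIE2, the receptor for the angiopoietins. GFP- replicates had 818, 1293, 1604 and 1519 normalised counts, and GFP+ replicates had 1329, 1259, 1626 and 1303. GFP- replicate 1 was the lowest, and the other 7 libraries lay within 1259 to 1626, so the groups overlapped. Tek had a log2 change of 0.09 ± 0.23 (SE), with a 95% interval of -0.37 to 0.54 and an adjusted p of 0.899 in DESeq2. That interval was the narrowest of the 10 genes, and Tek was called under 0 of 18 alternatives.

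Emcn (ENSMUSG00000054690, chr3:137341067-137432185, plus strand) encodes endomucin, a sialoglycoprotein of capillary and venous endothelium. Reads were found in 3 of 8 libraries: 1 in GFP- replicate 2, 17 in GFP- replicate 4 and 4 in GFP+ replicate 2. These were 0.717, 8.93 and 1.67 normalised counts. In the 5 libraries at 0, a count of 3 reads would be 1.01 to 33.0 normalised counts, with the upper end in the shallow GFP- replicate 3. Both group means, 2.41 ± 4.36 and 0.418 ± 0.837 (SD, n = 4), lay under the mean floor of their group, 10.2 and 2.18, and no fold is given. The GFP- mean floor was raised by replicate 3, at 33.0 against 1.58 to 4.07 in the other GFP- libraries. GFP- replicate 4 and GFP+ replicate 2 lay above their own floors of 1.58 and 1.26, so Emcn was detected in them.

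Rgs5 (ENSMUSG00000026678, chr1:169655501-169695813, plus strand), a regulator of G-protein signalling widely used as a pericyte marker, was low. GFP- replicates had 0, 0, 21.97 and 13.7 normalised counts, and GFP+ replicates had 11.1, 58.2, 13.8 and 58.0. The 21.97 of GFP- replicate 3 came from 2 reads, with an exact Poisson interval of 2.66 to 79.4. Every GFP+ library had reads, GFP+ replicates 2 and 4 were highest, and the groups overlapped. The log2 change of Rgs5 was 2.29 ± 1.28 (SE), at an adjusted p of 0.297 in DESeq2, 0.410 in edgeR and 0.132 in limma voom, and it was called under 0 of 18 alternatives. With 1 library left out it ran from 1.81 without GFP- replicate 2 to 3.70 without GFP- replicate 4.

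Cspg4 (ENSMUSG00000032911, chr9:56865033-56899870, plus strand) encodes the proteoglycan NG2 of pericytes. GFP- replicates had 29.8, 85.3, 76.9 and 52.5 normalised counts, and GFP+ replicates had 70.8, 55.6, 46.9 and 73.1. The GFP+ values lay within the range of the GFP- values. Cspg4 had a log2 change of 0.05 ± 0.45 (SE), with a 95% interval of -0.83 to 0.94 and an adjusted p of 0.975 in DESeq2.

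Mcam (ENSMUSG00000032135, chr9:44134469-44142727, plus strand) encodes CD146, an adhesion molecule of pericytes, smooth muscle and endothelium. GFP- replicates had 266, 181, 165 and 276 normalised counts, and GFP+ replicates had 37.5, 91.6, 65.3 and 99.3. Every GFP+ library lay below every GFP- library, as it did for 5.95% of tested genes. Means were 222 ± 57.0 and 73.4 ± 28.0 (SD, n = 4), and the fold fitted by DESeq2 was 3.04, with GFP- higher. Mcam had a log2 change of -1.60 ± 0.37 (SE), at an adjusted p of 5.93e-04 in DESeq2, 0.0341 in edgeR and 0.0113 in limma voom on filtered genes. It was called under all 18 alternatives, and with each library left out in turn its log2 change ran from -1.78 to -1.39 and its adjusted p in DESeq2 from 3.86e-04 to 0.0189.

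The melanocyte genes moved with Mcam. Within both groups Mcam ran in the same order as the summed melanocyte genes, highest in replicate 4 of each group. The same order in both groups was found for 0.484% of all tested genes and for 4.68% of the 727 genes called lower in GFP+. The melanocyte sum was 51643, 47027, 25502 and 74881 normalised counts in GFP- replicates and 4517, 7623, 4622 and 11885 in GFP+ replicates, and no gene of that list was at 0 in any library. The part of melanocyte or tumour cell RNA in the Mcam difference was not tested.

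**Figure D2:**
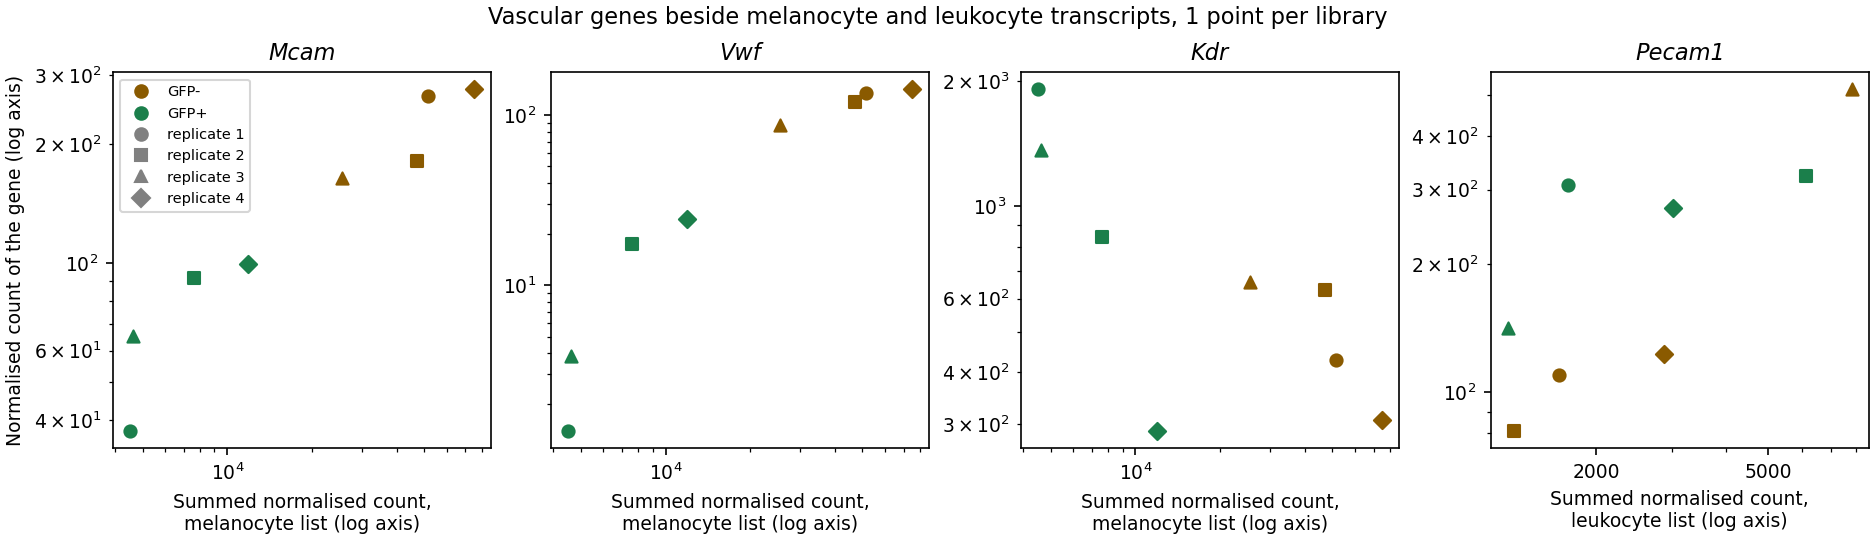
Normalised counts of Mcam, Vwf, Kdr and Pecam1 (log axes) against the summed normalised counts of the melanocyte list, or for Pecam1 of the leukocyte list, with 1 point per library. Mcam and Vwf climb with the melanocyte sum inside each group, Kdr runs the other way, and GFP- replicate 3 is highest for both Pecam1 and the leukocyte sum.

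Notch3 (ENSMUSG00000038146, chr17:32120820-32166852, minus strand) encodes the Notch receptor of mural cells. GFP- replicates had 189, 111, 143 and 83.5 normalised counts, and GFP+ replicates had 158, 144, 114 and 323. GFP+ replicate 4 stood highest, and the other 3 GFP+ libraries lay within the GFP- range. Its log2 change was 0.51 ± 0.42 (SE), at an adjusted p of 0.544 in DESeq2, and 0.10 without GFP+ replicate 4. An antisense gene, Gm17276, shares 488 exon bases with Notch3. Mcam shares 17 exon bases with the antisense gene Gm10687. Counting used the strand, which limits such reads.

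Kcnj8 (ENSMUSG00000030247, chr6:142564837-142571614, minus strand) encodes Kir6.1, the pore of the vascular ATP-sensitive potassium channel. GFP- replicates had 10.9, 13.6, 65.9 and 32.6 normalised counts, and GFP+ replicates had 16.7, 30.5, 18.4 and 60.7. The highest values were in GFP- replicate 3 and GFP+ replicate 4, and the groups overlapped. That of GFP- replicate 3 came from 6 reads, with an exact Poisson interval of 24.2 to 143 normalised counts. For Kcnj8 the log2 change was 0.26 ± 0.74 (SE), at an adjusted p of 0.904 in DESeq2.

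**Figure D3:**
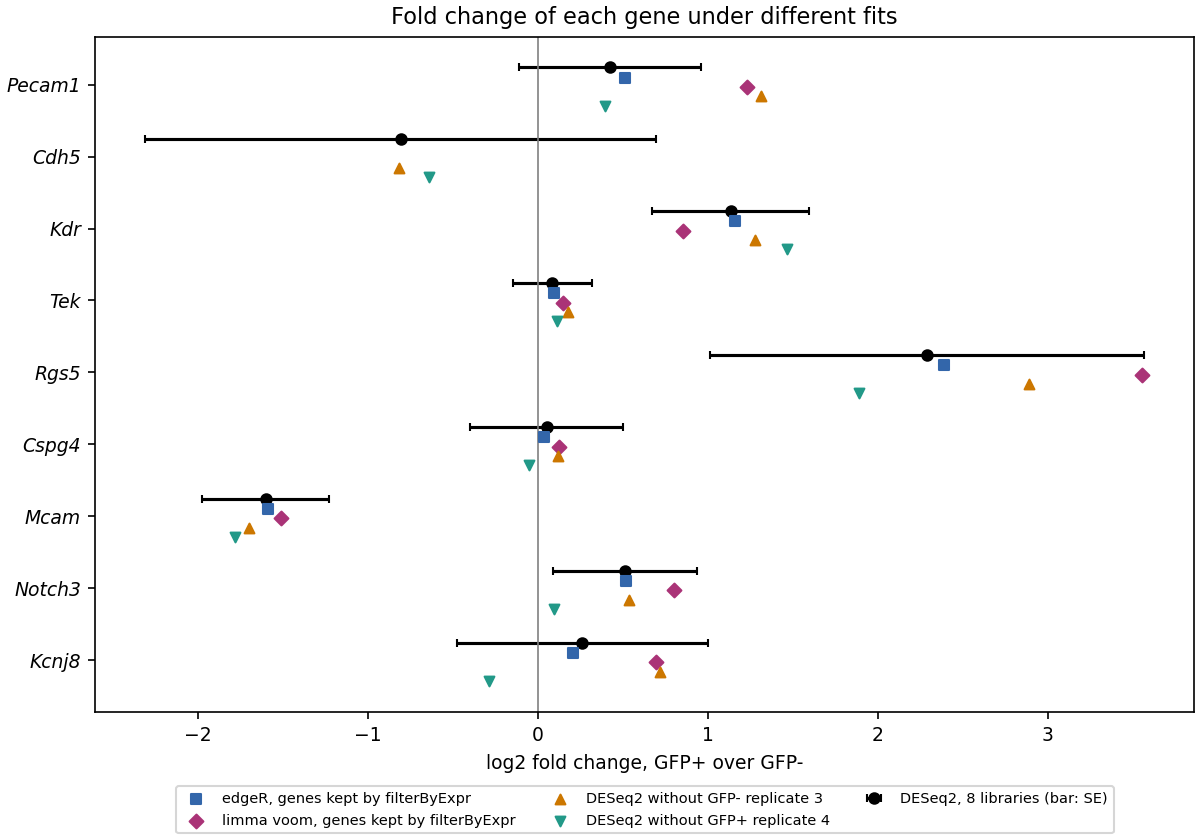
Log2 fold changes, GFP+ over GFP-, of 9 genes in DESeq2 with SE bars, in edgeR and limma voom on genes kept by filterByExpr, and in DESeq2 without GFP- replicate 3 or without GFP+ replicate 4. Mcam lies between -1.78 and -1.51 in every fit shown, Pecam1 moves from 0.42 to 1.31 without GFP- replicate 3, Cdh5 was not kept by the filter and Emcn is not drawn.

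Further endothelial genes were read from a list of 30. Of these, 19 were tested, 0 were called higher and 1 lower in DESeq2, near the background of 4.66% and 4.76%. On filtered genes 1 was called lower in edgeR and 2 in limma voom, against 5.11% and 9% of all genes in either direction, and 5 had an unadjusted p under 0.05 in DESeq2, all of them lower, against 10.2% of tested genes that passed it as higher and 10.8% as lower. In the list, 19 of the 30 genes had a mean under 20 normalised counts. The list was uneven. Eng averaged 1190 and 862 normalised counts, Flt1 231 and 184, Fli1, a transcription factor also of blood cells, 265 and 141, Ecscr 252 and 129, and Plvap, the protein of endothelial diaphragms, 40.4 and 51.4. Other endothelial genes were at or near 0: Egfl7 was at 0 in 7 of 8 libraries and at 8.79 in GFP+ replicate 2, Tie1, the sister receptor of TIE2, was at 0 to 6.30, and Sox17, an endothelial transcription factor, at 0 to 0.717. Myct1 reached 1.36 and Gpihbp1, which holds lipoprotein lipase on capillaries, 6.30 normalised counts. Cldn5, the claudin of tight endothelial junctions, was at 0 in 5 libraries, with its highest value of 43.9, from 4 reads, in GFP- replicate 3. These genes other than the called and the 2 most abundant uncalled ones were picked after their values were seen.

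The gene called was Vwf (chr6:125546774-125686679), the clotting glycoprotein that endothelial cells store. GFP- replicates had 136, 120, 87.9 and 142 normalised counts, and GFP+ replicates had 1.39, 17.6, 3.84 and 24.5. No GFP+ library came near the GFP- range, and the value of GFP+ replicate 1 was 1 read. The log2 change of Vwf was -3.30 ± 0.66 (SE), at an adjusted p of 3.77e-05 in DESeq2, 0.0266 in edgeR and 0.00682 in limma voom, and was called under 18 of 18 alternatives. Within both groups Vwf, like Mcam, ran in the order of the melanocyte sum, and the part of those transcripts in it was not tested. Eng, a co-receptor for TGF-β family ligands that fibroblasts also transcribe, averaged 294 and 213 normalised counts per kilobase and gave a log2 value of -0.48 in DESeq2, at an adjusted p of 0.0862. Flt1 (VEGFR1) gave -0.36 and an adjusted p of 0.759 in DESeq2. Of 4 lymphatic endothelial genes tested 0 were called in DESeq2, edgeR or limma voom on filtered genes, against 9.42%, 5.11% and 9% of all genes. Of the 4, 0 had an unadjusted p under 0.05 in DESeq2, against 21% of tested genes. Lyve1 was at 132 ± 84.2 and 113 ± 109 and Reln at 62.9 ± 47.2 and 134 ± 56.7 normalised counts (SD, n = 4).

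**Figure D4:**
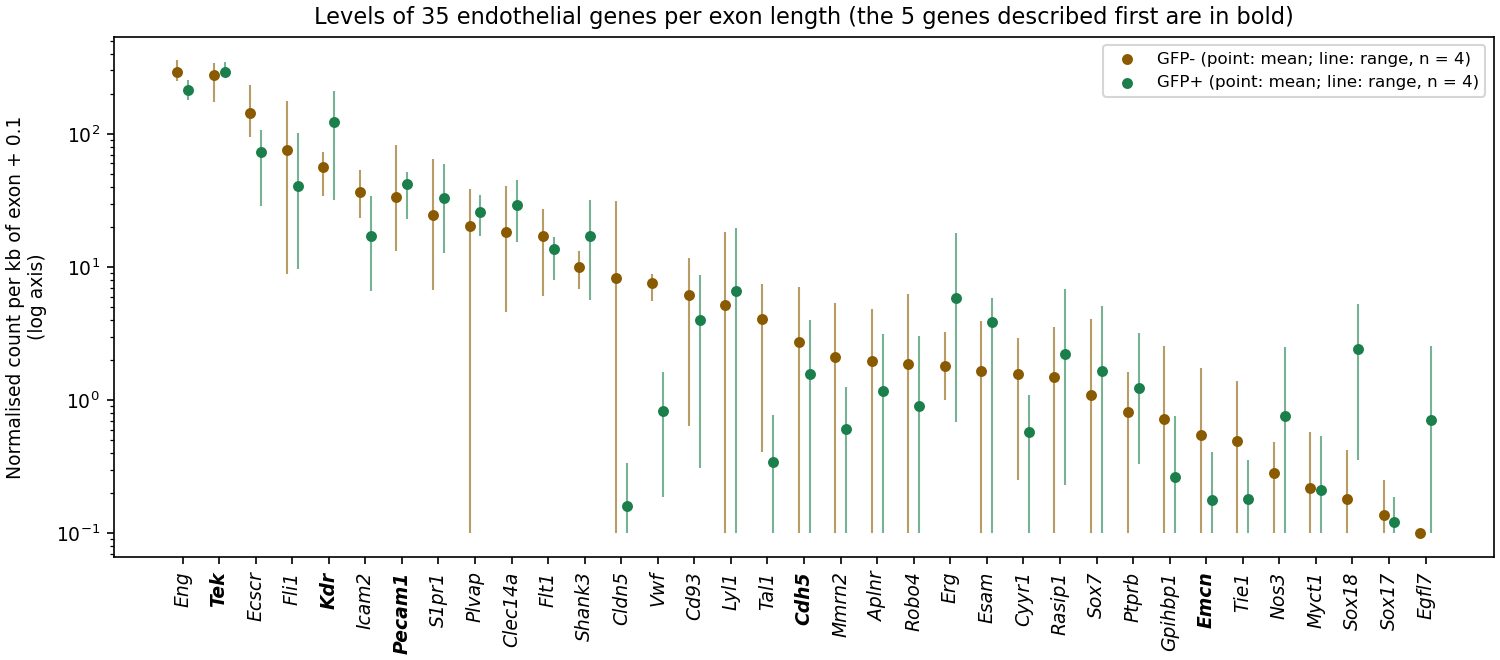
Normalised counts per kilobase of exon plus 0.1 (log axis) for 35 endothelial genes ordered by the GFP- mean, with points for group means and lines for the range of 4 libraries. Eng and Tek lead at 294 and 278 in GFP- libraries, Emcn is near the bottom, and Vwf is the gene whose ranges part, at 7.55 and 0.736.

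Further mural genes were read from a list of 22, of which 18 were tested, 4 were called higher and 1 lower in GFP+ libraries, against a background of 4.66% and 4.76%. In the list, 7 of the 22 genes had a mean under 20 normalised counts, and Higd1b had no reads in any library. Of the 18 tested genes, 13 had a positive and 5 a negative log2 change. The median log2 change of the 18 was 0.73, against -0.00818 over all tested genes. The fibroblast genes moved the same way: over 10 of them the median log2 change was 0.91, 10 of 10 were positive, 8 were called higher and 9 did not overlap between groups, as 6.37% of tested genes did not with GFP+ higher. Their part in the mural values was not tested. Steap4, a metalloreductase used as a pericyte marker, had 883, 861, 1560 and 783 normalised counts in GFP- replicates and 3869, 3193, 3896 and 4395 in GFP+ replicates. The groups lay far apart, and the log2 change was 1.94 ± 0.23 (SE), at an adjusted p of 1.41e-13 in DESeq2 and 9.76e-04 in edgeR.

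Gucy1a1 and Gucy1b1 encode the subunits of the soluble guanylate cyclase, the nitric oxide receptor of vascular smooth muscle, and lie next to each other on chromosome 3. Gucy1a1 averaged 49.8 ± 11.2 and 298 ± 111 normalised counts (SD, n = 4), a log2 change of 2.68 ± 0.36 (SE). Gucy1b1 averaged 32.8 ± 23.3 and 225 ± 57.6 normalised counts (SD, n = 4), a log2 change of 3.09 ± 0.45 (SE). In both genes every GFP+ library lay above every GFP- library, as in 6.37% of tested genes, and adjusted p-values in DESeq2 were 2.53e-11 and 1.11e-09.

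Abcc9, which encodes the regulatory subunit that assembles with Kir6.1, averaged 275 ± 162 and 589 ± 167 normalised counts (SD, n = 4). Its groups overlapped, since GFP- replicate 3 reached 472 and GFP+ replicate 1 had 386. Abcc9 gave a log2 change of 1.15 ± 0.41 (SE), at an adjusted p of 0.0493 in DESeq2 and 0.0975 in edgeR, and the call was lost without GFP- replicate 1 or 2 or GFP+ replicate 2, 3 or 4, with adjusted p up to 0.164. Foxs1, a forkhead factor named here for its call although its mean was under 20 normalised counts, was at 55.6, 17.2, 43.9 and 2.63 in GFP- and 0, 0.418, 0 and 6.37 in GFP+ replicates, at an adjusted p of 0.0415 in DESeq2. Foxs1 was called under 5 of 18 alternatives and was not kept by filterByExpr. Its call was lost without any of GFP- replicates 1, 2 and 3 and GFP+ replicates 1, 2 and 3, with adjusted p up to 0.205. Pdgfrb, the receptor by which pericytes are recruited and which fibroblasts share, was added after its values were seen. It averaged 2029 ± 310 and 2867 ± 450 normalised counts (SD, n = 4) without overlap, a log2 change of 0.51 at an adjusted p of 0.0613 in DESeq2. Ebf1 and Anpep, the most abundant uncalled genes, had log2 changes of 0.31 and 0.50, at adjusted p-values of 0.436 and 0.0906 in DESeq2.

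Of 16 smooth muscle genes 8 were tested, with 1 called higher and 0 lower in DESeq2, against a background of 4.66% and 4.76%, and 1 call each in edgeR and limma voom on filtered genes, while 2 had an unadjusted p under 0.05, against 21% of tested genes. Synpo2, an actin-binding protein of smooth muscle and skeletal muscle, averaged 106 ± 23.3 and 268 ± 44.5 normalised counts (SD, n = 4), a log2 change of 1.41 ± 0.28 (SE) at an adjusted p of 2.93e-05 in DESeq2. Smtn and Mylk, the most abundant uncalled genes, had log2 changes of -0.12 and -1.07. Mylk had an adjusted p of 0.165 in DESeq2, and 0.0186 without GFP+ replicate 4. Myh11, the smooth muscle myosin, was at 0 to 65.4 normalised counts and was chosen after its values were seen.

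**Figure D5:**
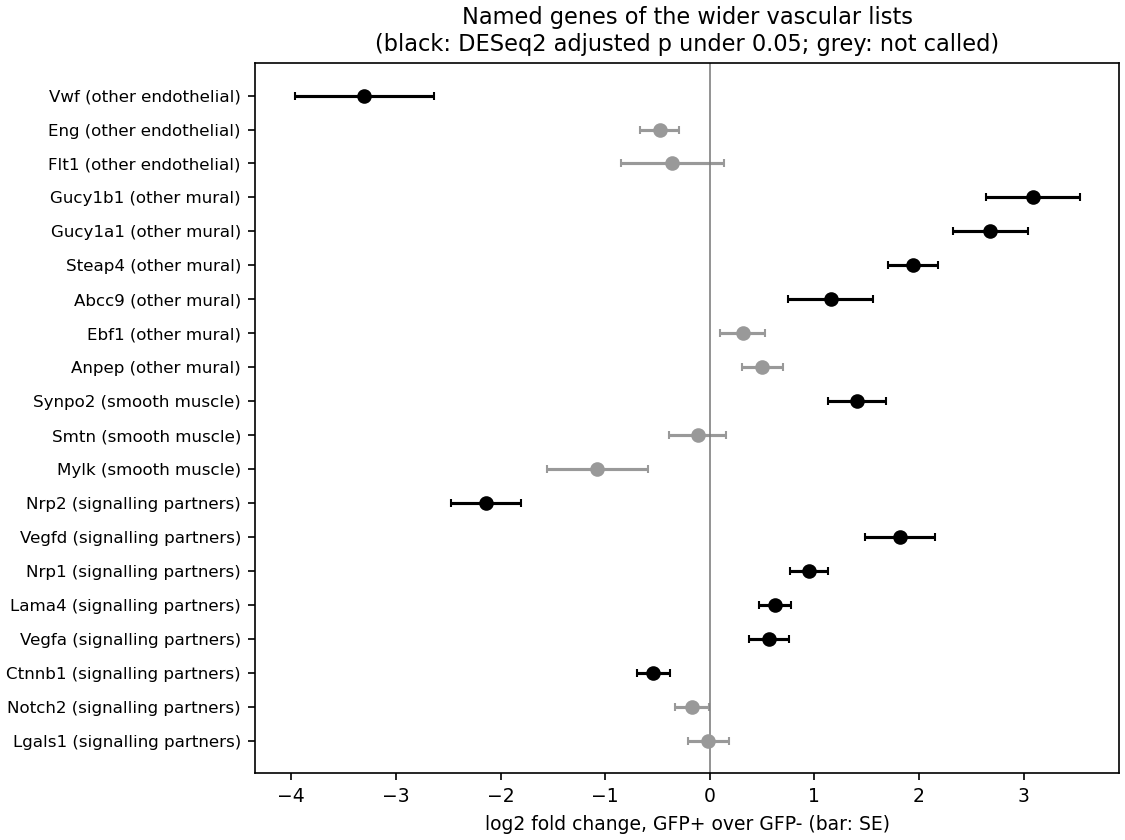
Log2 fold changes, GFP+ over GFP-, with SE bars for genes with a mean of at least 20 normalised counts, the called and the 2 most abundant uncalled ones, of the other endothelial, other mural, smooth muscle and signalling lists in DESeq2, black where the adjusted p was under 0.05. Among the genes drawn, Vwf and Nrp2 lie lowest at -3.30 and -2.14, and Gucy1b1 and Gucy1a1 highest at 3.09 and 2.68; Foxs1 is not drawn.

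The last list held 30 ligands, receptors and matrix partners by which endothelial and mural cells signal. Of 27 tested, 4 were called higher and 2 lower in GFP+ libraries in DESeq2, against a background of 4.66% and 4.76%. On filtered genes there were 4 calls in edgeR and 8 in limma voom, against 5.11% and 9% of all genes. In DESeq2, 11 had an unadjusted p under 0.05, 6 higher and 5 lower, against 10.2% and 10.8% of tested genes. The median log2 change was -0.17. Among ligands, Vegfa, which activates VEGFR2, averaged 2459 ± 377 and 3639 ± 633 normalised counts (SD, n = 4), a log2 change of 0.57 ± 0.19 (SE). Its adjusted p was 0.0386 in DESeq2 and 0.0804 in edgeR, and it was called under 9 of 18 alternatives. The Vegfa call was lost without GFP- replicate 2 or 4 or GFP+ replicate 1, 2 or 3, with adjusted p up to 0.175. Vegfd, a lymphangiogenic ligand, averaged 790 ± 397 and 2739 ± 527 (SD, n = 4), a log2 change of 1.82 ± 0.33 (SE) at an adjusted p of 4.05e-06 in DESeq2.

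The VEGF co-receptors moved in opposite directions. Nrp1 had 1499, 1411, 1505 and 1050 normalised counts in GFP- replicates and 2594, 2673, 3033 and 2181 in GFP+ replicates. Nrp2 had 1981, 1875, 1253 and 2488 in GFP- replicates and 299, 526, 241 and 662 in GFP+ replicates. Within GFP- libraries Nrp2 ran in the order of the melanocyte sum, within GFP+ libraries it did not in full, although replicates 4 and 2 were highest in both, and the part of those transcripts was not tested. Neither gene overlapped between groups, and the log2 changes were 0.95 ± 0.18 and -2.14 ± 0.33 (SE), at adjusted p-values of 1.71e-05 and 2.18e-08 in DESeq2. Lama4, the laminin α4 chain of vessel basement membrane, rose by 0.62 ± 0.15 (SE, log2) at an adjusted p of 0.0012 in DESeq2. Ctnnb1, the β-catenin of cadherin junctions, had a log2 change of -0.54 ± 0.16 (SE), at adjusted p-values of 0.0129 in DESeq2 and 0.0667 in edgeR, and its call was lost without GFP- replicate 2 or 4 or GFP+ replicate 2 or 3, with adjusted p up to 0.0805. Notch2 and Lgals1, the most abundant uncalled genes, had log2 changes of -0.17 and -0.01.

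Profiles over the 8 libraries were compared with the mean profile of each gene group by the root mean square difference of centred log2(normalised count + 1), over 11560 genes with a mean of at least 20 and a count in every library. Nearest to the endothelial mean were Necap1, Ezr, Gpatch1, Use1 and Sertad3, at 0.224, 0.231, 0.243, 0.281 and 0.282, against a median of 0.742. Among the nearest to the mural mean were Malat1, Nck2, Nedd9 and Slc15a3, at 0.198, 0.214, 0.227 and 0.228, against a median of 0.782. The likeness is a description over 8 libraries that differ widely in depth and come from both GFP gates, and none of the genes named was an endothelial or mural gene of the lists used here.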

How the data were processed

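Stranded libraries for small inputs of total RNA were sequenced on a NextSeq. Per the labels and the submitters' processing notes, the authors used cutadapt 3.4, STAR 2.7.3a (GRCm38) and featureCounts 2.0.1, and deposited 1 table of raw counts, a whole number for each gene in each library, with no pooling of replicates. The deposited table also holds a normalised score per library, each count divided by a DESeq2 size factor and rounded, from which values computed here differed by at most 0.49991. The authors' fold changes and p-values were not used. Per-sample columns left unused: 0.

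Calculations used R 4.3.3. DESeq2 1.42.0 was fitted to the 29043 genes that had any count (group as the term, two-sided Wald test, independent filtering, Benjamini-Hochberg adjustment over 15283 genes, adjusted p under 0.05), with edgeR 4.0.16 (quasi-likelihood) and limma 3.58.1 (voom), DESeq2 with other factors, filters or a replicate block, and each library left out as alternatives, also on the 14323 genes kept by filterByExpr, which was chosen after seeing the data. Code was tested on simulated data. Replicates of a group differed by a chi-square of 9.68 to 73.0 per degree of freedom, so no library was a copy. No batch is labelled. The DESeq2 interval of a fold change is at 95%.

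Members and lists were chosen with earlier results of these data known. Named were all members, up to 6 called genes per list with a mean of at least 20, and the 2 most abundant uncalled ones, and up to 5 genes nearest in profile to each group mean, of which 1 is not reported here. Over the lists used for checking, 8 of 10 fibroblast genes were called higher, 0 of 5 erythroid genes were called, and 2 listed genes found on several rows, Ccl21a and Itgam, were left out. Coordinates and lengths come from GENCODE M21, which held 99.66% of identifiers, and reads of paralogs or pseudogenes can be split or lost by the counting.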

Additional observations from a re-analysis of the deposited data

Results flagged for a closer look

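Of 24 groups of 4 libraries checked, 3 held a library whose gap to the nearest other, divided by the range, passed Dixon's 95% critical value for 4 samples. Chance gives about 1 in 20 where values are normally distributed, a rate that does not hold for counts near 0. Pecam1 had 516 normalised counts in GFP- replicate 3, with a gap of 0.904 of the range. Emcn had 8.93 normalised counts in GFP- replicate 4, a gap of 0.92 of the range, and 1.67 in GFP+ replicate 2, a gap of 1, where the other 3 GFP+ libraries were at 0. With those at 0, any count in GFP+ replicate 2 gives a gap of 1, so that flag was fixed in advance. The Emcn values rest on 17 and 4 reads.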

How the results depend on the processing

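Of the members, Mcam kept its direction and its call under all 18 alternatives. The number of genes called was 1439, and 938 in limma voom on all genes with a count, 732 in edgeR on filtered genes, 844 at an adjusted p under 0.01 and 969 to 1837 with 1 library left out. Endothelial members called were 0, but 1 in edgeR on all genes with a count, in limma voom on filtered genes and without both GFP- replicate 3 and GFP+ replicate 2, and 0 to 1 with 1 library left out. Other endothelial genes called were 1, but 2 in limma voom with and without the filter and without both of those libraries, and 1 to 2 with 1 left out. Other mural genes called were 5, but 3 without independent filtering, in edgeR on filtered genes and at 0.01, and 3 to 7 with 1 left out. Smooth muscle genes called were 1, or 1 to 2 with 1 left out. Deviations of equal-numbered libraries correlated at -0.158 to 0.262 over 8812 genes, and libraries correlated best with their own number in 1 of 4 replicates, so the numbers were not taken to pair them. With the replicate number as a block, 1492 genes were called in all, with 8 other mural and 2 smooth muscle genes among them, and no call of a member changed. Signs of uncalled genes turned with 1 library left out: Cdh5 ran from -1.90 to 0.89, Tek from -0.087 to 0.18, Cspg4 from -0.20 to 0.33 and Kcnj8 from -0.29 to 0.72 (log2). Shallow GFP- replicate 3, where 1 read is 10.99 normalised counts, limits Cdh5, Emcn, Rgs5 and Kcnj8. The causes of these changes were not tested. Alternatives on filtered genes and without both libraries were chosen after seeing the data.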
